A study of Mus musculus with 6 samples.

Results

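The PARP family consists of enzymes that attach ADP-ribose, taken from NAD, to proteins. Some members act on damaged DNA: Parp1 and Parp2 build branched chains of ADP-ribose at strand breaks, which recruit repair proteins, and Parp3 adds single units at double-strand breaks. Others are induced by interferon and take part in the defence against viruses, mostly by adding single units of ADP-ribose, and Dtx3l is the ubiquitin ligase that binds Parp9 and acts with it. The members described here are the 10 genes Parp1, Parp2, Parp3, Parp8, Parp9, Parp10, Parp11, Parp12, Parp14 and Dtx3l, found by gene name among the 54532 genes of the count table. All 10 passed the filter on low counts, as did 12907 genes in all. From general knowledge of the family, Parp9, Parp10, Parp11, Parp12, Parp14 and Dtx3l were set together as the 6 interferon-inducible members and Parp1, Parp2 and Parp3 as the 3 DNA repair members, and Parp8 was put in neither class.

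Expression was measured by bulk RNA-seq in MB49, a mouse bladder cancer cell line from a male, in its Y-positive form edited with CRISPR. The knockout cells carried the genotype CRISPR Y-KO (3 libraries) and their controls CRISPR Y-Scr, made with a non-targeting guide RNA (3 libraries). Per the labels, cells of the line were sorted after transduction on a red fluorescent protein and grown from single cells, so an effect of the knockout and a difference between clones cannot be told apart. No label or header names the guide used for Y-KO, the tissue is labelled as MB49 tumor as well as a cell line, and all libraries share batch 1. Age, dose and time are not labelled, and whether replicates were separate cultures or clones is not stated, so p-values measure only the spread between these libraries, which may be technical.

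The libraries held between 15698510 and 24633158 counts. As a check of the knockout, the Y-linked genes Ddx3y, Eif2s3y, Kdm5d and Uty had 0 counts in every Y-KO library, against a summed level of 370 to 431 CPM (counts scaled to a common library size with TMM factors) in the Y-Scr libraries. Of 14 markers of bladder epithelium, 4 passed the filter on low counts. The keratin genes Krt8 and Krt18 stood at 2816 ± 142 and 1351 ± 19.7 CPM in Y-KO and at 2188 ± 67.2 and 1326 ± 121 CPM in Y-Scr (SD, n = 3). Krt14 stood at 4.33 ± 0.902 CPM in Y-KO and 4.11 ± 0.394 CPM in Y-Scr. Gata3 went the other way from Krt8, with 2.81 ± 0.768 CPM in Y-KO and 7.80 ± 0.333 CPM in Y-Scr. Krt5, Krt7, Upk1a, Upk1b, Upk2, Pparg and Trp63 did not pass the filter, with group means up to 0.240 CPM. Epcam, Krt20 and Upk3a had 0 counts in all 6 libraries. Of 8 leukocyte markers, 5 had 0 counts in all libraries, Ptprc, Cd3e and Itgam among them. Cd68, which many cells other than leukocytes express, made up nearly all of the summed level of that list, 94.8 to 99.98 CPM in Y-KO and 106 to 114 CPM in Y-Scr. The 4 endothelial markers summed to 0.560 to 0.859 CPM in Y-KO and 0.544 to 0.752 CPM in Y-Scr. In bulk RNA, fewer expressing cells and less RNA per cell cannot be told apart.

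The interferon-inducible members were lower in Y-KO cells, and among the DNA repair members only Parp1 passed the test used here, in the opposite direction. By edgeR's quasi-likelihood test with Benjamini-Hochberg adjustment over all tested genes, 7 of the 10 members fell and 1 rose at an adjusted p under 0.05, where 43.6% of all tested genes passed, 23.0% lower and 20.7% higher. All 6 interferon-inducible members fell, with a median log2 fold change of -1.25 (Y-KO minus Y-Scr), but the call of Parp11 was weak, as described with its values. Of the 3 DNA repair members, 1 rose, 0 fell and 2 did not pass, with a median of -0.11, and over all tested genes the median was -0.01. After trends on gene length and GC content were removed, the medians were -1.18 for the interferon-inducible and -0.03 for the DNA repair members. Of all calls, 47.3% were higher in Y-KO, and 57.4% with those trends removed.

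Per-library CPM values did not overlap between the groups for 9 members, 8 of them lower in Y-KO and 1 higher, where 27.5% of tested genes were lower and 25.4% higher without overlap. Summed over the 6 interferon-inducible members, the level per length was 18.2, 18.7 and 19.4 RPKM (CPM per kilobase of the gene model) in Y-KO, against 44.0, 45.7 and 44.5 RPKM in Y-Scr. Summed over the 3 DNA repair members it was 75.4, 68.4 and 70.8 RPKM in Y-KO, against 59.4, 65.3 and 65.1 RPKM in Y-Scr. Within a library, the interferon-inducible sum over the DNA repair sum was therefore 0.241, 0.273 and 0.274 in Y-KO and 0.741, 0.6999 and 0.684 in Y-Scr.

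**Figure D1:**
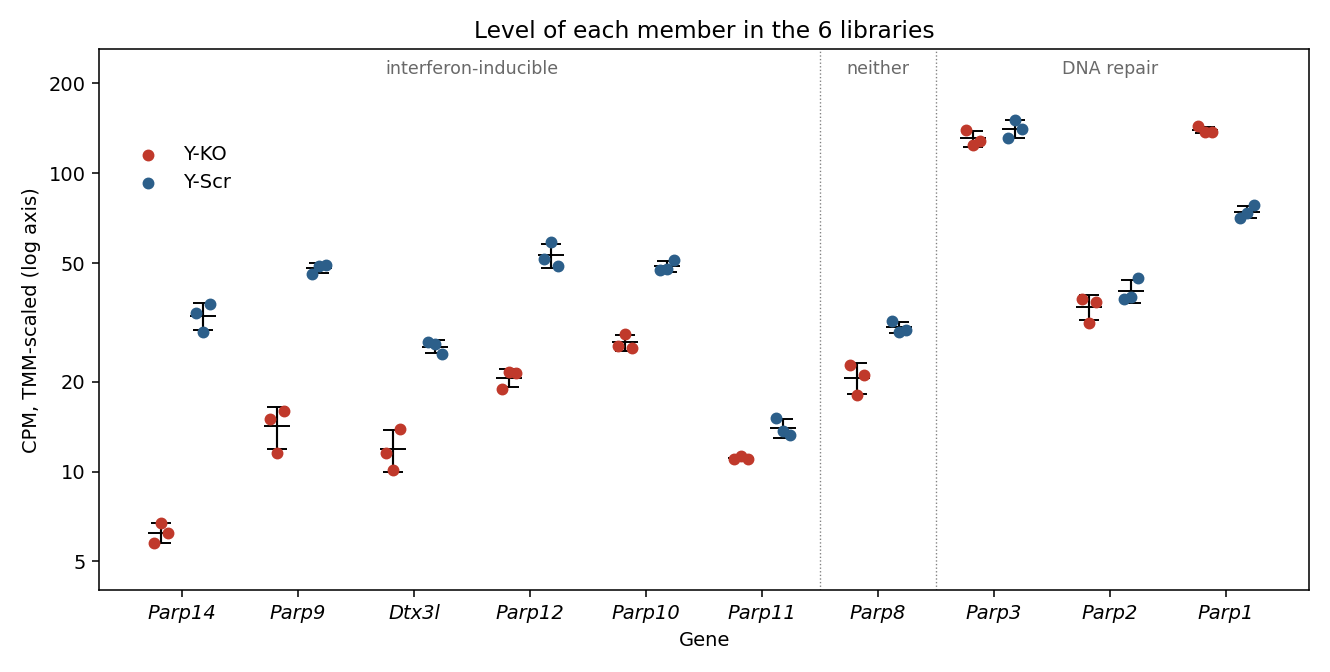
Level of each member (CPM on TMM-scaled library sizes, log axis) in the 3 Y-KO libraries (red, left of each pair) and the 3 Y-Scr libraries (blue, right), with the mean as a horizontal line and the SD as a bar. The points of the 6 interferon-inducible members and Parp8 lie lower in Y-KO, those of Parp1 lie higher, and those of Parp2 and Parp3 meet or nearly meet.

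Parp14, which encodes a large mono-ADP-ribosyltransferase with macrodomains that bind ADP-ribose, had the largest change of the family (ENSMUSG00000034422, chromosome 16, 35832874 to 35871544, minus strand, GRCm38). Its level was 5.75, 6.72 and 6.23 CPM in the Y-KO libraries, against 34.04, 29.5 and 36.5 CPM in the Y-Scr libraries. Every Y-KO value was thus several times below the lowest Y-Scr value. The log2 fold change was -2.42 ± 0.12 (SE, adjusted p = 7.0e-12), which is 5.36-fold lower in Y-KO, and across all 16 alternative fits it lay between -2.51 and -2.35.

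Parp9, a macrodomain protein gene that lies 5′ to 5′ with Dtx3l on the opposite strand, was second (ENSMUSG00000022906, chromosome 16, 35938470 to 35972605, plus strand). It had 15.0, 11.6 and 15.97 CPM in the Y-KO libraries, against 45.9, 48.9 and 49.5 CPM in the Y-Scr libraries. The second Y-KO library was the lowest, and the groups lay far apart. It fell by 1.76 ± 0.11 on the log2 scale (SE, adjusted p = 1.7e-10).

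Dtx3l, the partner ligase of Parp9, fell as well, by less (ENSMUSG00000049502, chromosome 16, 35926511 to 35939151, minus strand). Its values were 11.5, 10.1 and 13.9 CPM in Y-KO, against 27.2, 26.8 and 24.8 CPM in Y-Scr. It fell by 1.14 ± 0.12 on the log2 scale (SE, adjusted p = 3.4e-07), 2.20-fold lower in Y-KO. The annotated models of Parp9 and Dtx3l share 682 bases on opposite strands, and no source used here says whether the counting used strand, so reads from that stretch cannot be assigned with certainty.

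The balance between these partners was compared within each library. Parp9 over Dtx3l, both per length, was 1.53, 1.34 and 1.35 in the Y-KO libraries and 1.98, 2.14 and 2.35 in the Y-Scr libraries. The ratio averaged 1.41 ± 0.11 in Y-KO and 2.16 ± 0.18 in Y-Scr (SD, n = 3 each), without overlap. A two-sided exact permutation test gave p = 0.1. That is the smallest value this test can give with 3 against 3 libraries, so it could not have passed 0.05 and does not decide the question.

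Parp12, a zinc-finger mono-ADP-ribosyltransferase gene whose product restricts several RNA viruses, lies on chromosome 6 (ENSMUSG00000038507, 39086410 to 39118349, minus strand). It had 19.0, 21.6 and 21.5 CPM in the Y-KO libraries, against 51.6, 58.7 and 48.9 CPM in the Y-Scr libraries. The highest Y-KO library stayed below every Y-Scr library. On the log2 scale it fell by 1.36 ± 0.10 (SE, adjusted p = 1.4e-09), 2.56-fold lower in Y-KO.

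Parp10, another mono-ADP-ribosyltransferase gene, known as a brake on NF-kB signalling in human cells, lies on chromosome 15 (ENSMUSG00000063268, 76231174 to 76243441, minus strand). The Y-KO libraries held 26.4, 29.0 and 25.9 CPM, and the Y-Scr libraries 47.4, 47.8 and 51.3 CPM. It fell by 0.85 ± 0.09 (SE, adjusted p = 2.6e-07), 1.80-fold lower in Y-KO, with no overlap between groups. Its model shares 1401 bases with the far more abundant Plec on the same strand, and Plec moved the other way, with a mean of 867 CPM in Y-KO and 492 CPM in Y-Scr.

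Parp11, which modifies a ubiquitin ligase that controls the interferon receptor, changed least among the interferon-inducible members (ENSMUSG00000037997, chromosome 6, 127446840 to 127494261, plus strand). It stood at 11.01, 11.3 and 10.99 CPM in Y-KO, against 15.2, 13.7 and 13.2 CPM in Y-Scr, a narrow gap without overlap. The log2 fold change was -0.34 ± 0.12 (SE, adjusted p = 0.0345). That call was lost in 8 of 16 alternative fits: with DESeq2 (adjusted p = 0.0623), with no low-count filter (0.059), with the replicate number as a block (0.0621), and without Y-KO 1 (0.0873), Y-KO 2 (0.0717), Y-KO 3 (0.0895), Y-Scr 1 (0.128) or Y-Scr 2 (0.064).

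Parp8, a mono-ADP-ribosyltransferase gene of little known function, was assigned to neither class and was lower too (ENSMUSG00000021725, chromosome 13, 116854820 to 117025537, minus strand). It had 22.8, 18.0 and 21.1 CPM in the Y-KO libraries, against 32.0, 29.4 and 29.9 CPM in the Y-Scr libraries, without overlap. The log2 fold change was -0.55 ± 0.10 (SE, adjusted p = 2.4e-04), larger in size than that of Parp11, and it passed in all 16 alternative fits.

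Parp1, which encodes the main maker of ADP-ribose chains at DNA breaks, was the only member that rose (ENSMUSG00000026496, chromosome 1, 180568924 to 180601254, plus strand). It had 143.6, 137.5 and 137.4 CPM in the Y-KO libraries, against 71.1, 73.4 and 78.3 CPM in the Y-Scr libraries. All Y-KO libraries lay close together and well above the controls. The log2 fold change was 0.91 ± 0.07 (SE, adjusted p = 1.5e-09), 1.88-fold higher in Y-KO, and between 0.86 and 0.95 in the 16 alternative fits.

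Parp2, the closest relative of Parp1 in function, did not pass the test (ENSMUSG00000036023, chromosome 14, 50807841 to 50821301, plus strand). It stood at 37.9, 31.6 and 37.2 CPM in Y-KO and at 37.9, 38.5 and 44.5 CPM in Y-Scr, with the highest Y-KO library just short of the lowest Y-Scr library. Its log2 fold change was -0.18 ± 0.10 (SE, adjusted p = 0.133), with a 95% interval of -0.39 to 0.02.

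Parp3 did not pass either (ENSMUSG00000023249, chromosome 9, 106470322 to 106476949, minus strand). Its values, 139.9, 124.8 and 127.9 CPM in Y-KO and 131.3, 150.9 and 140.6 CPM in Y-Scr, overlapped. The log2 fold change was -0.11 ± 0.07 (SE, adjusted p = 0.222), with a 95% interval of -0.25 to 0.04. The intervals of Parp2 and Parp3 both lie below that of Parp1, which runs from 0.77 to 1.05. The Parp3 model shares 987 bases with Rrp9 on the opposite strand, which has a mean of 96.2 CPM in Y-KO and 83.2 CPM in Y-Scr.

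Compared per length, the DNA repair genes were the most abundant members in Y-KO. The order in Y-KO was Parp3 (35.4 ± 2.16 RPKM, SD, n = 3), Parp1 (26.4 ± 0.671), Parp2 (9.80 ± 0.944), Parp10 (6.34 ± 0.387), Parp12 (5.18 ± 0.372), Parp9 (2.91 ± 0.476), Parp8 (2.33 ± 0.273), Dtx3l (2.07 ± 0.335), Parp11 (1.58 ± 0.0218) and Parp14 (0.670 ± 0.0523). Of neighbours in that order, the libraries of Parp9 and Parp8 and those of Parp8 and Dtx3l overlapped. In Y-Scr, Parp3 (38.1 ± 2.65 RPKM) was followed by Parp1 (14.0 ± 0.696), Parp12 (13.3 ± 1.27), Parp10 (11.4 ± 0.497), Parp2 (11.1 ± 1.01), Parp9 (9.87 ± 0.387), Dtx3l (4.59 ± 0.228), Parp14 (3.58 ± 0.382), Parp8 (3.43 ± 0.152) and Parp11 (2.00 ± 0.145). There the pairs that overlapped were Parp1 with Parp12, Parp10 with Parp2, and Parp14 with Parp8. Parp14 was thus last in Y-KO and eighth in Y-Scr.

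**Figure D2:**
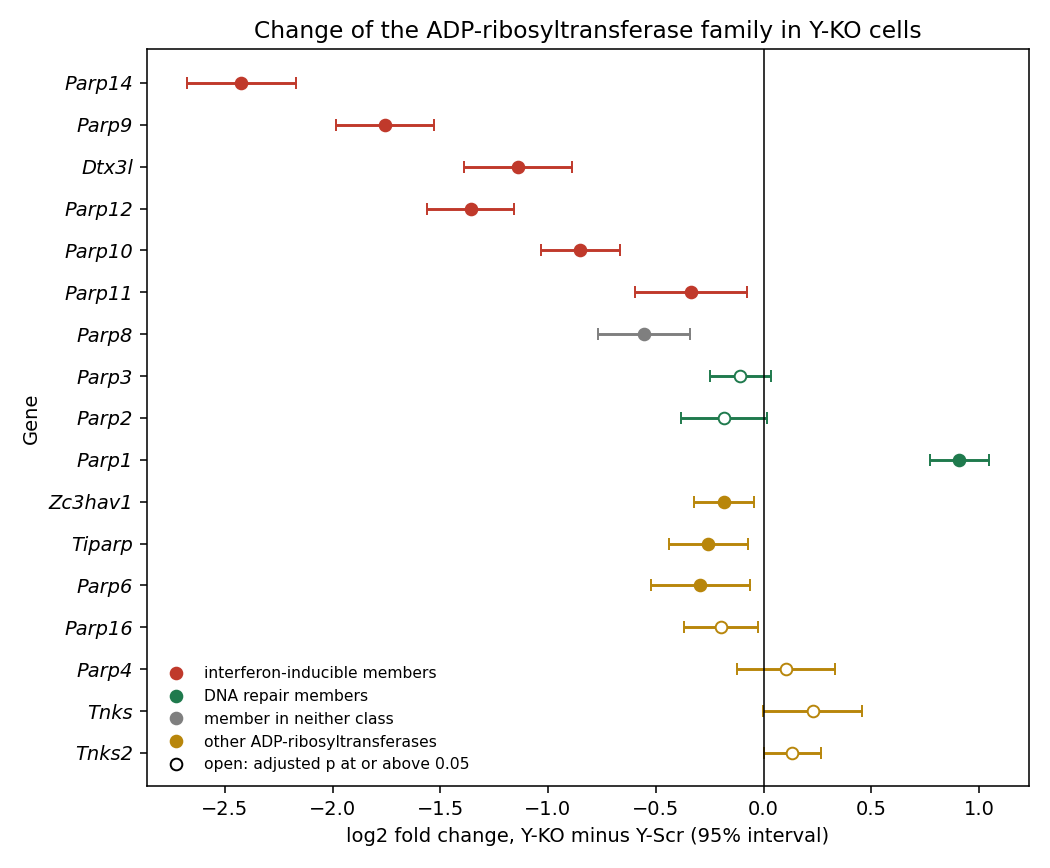
Log2 fold change (Y-KO minus Y-Scr) with its 95% interval for the 10 members and 7 further genes of the family, coloured by class, with open points for genes at an adjusted p of at least 0.05. Parp14 and Parp9 lie farthest to the left at -2.42 and -1.76, Parp1 alone lies far to the right at 0.91, and the 7 further genes lie between -0.29 and 0.23.

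The remainder of the family moved little. Of 7 further ADP-ribosyltransferase genes, all tested, 3 fell and 0 rose, where 23.0% of all tested genes fell and 20.7% rose, with a median of -0.18 on the log2 scale. Zc3hav1, the gene of the antiviral protein ZAP, which binds viral RNA and lacks enzyme activity, fell by 0.18 ± 0.07 (SE, adjusted p = 0.0295), with 128 ± 7.06 CPM in Y-KO and 146 ± 8.28 CPM in Y-Scr. Tiparp, a target of the aryl hydrocarbon receptor, fell by 0.26 ± 0.09 (adjusted p = 0.0252) although its libraries overlapped, and Parp6 fell by 0.29 ± 0.11 (adjusted p = 0.0362). Parp16 (-0.20 ± 0.08), the vault protein gene Parp4 (0.10 ± 0.11) and the tankyrase genes Tnks (0.23 ± 0.11) and Tnks2 (0.13 ± 0.06) did not pass. These 3 calls were weak: 0 remained without Y-KO 1, without Y-Scr 1 or with the replicate block, and 1 without Y-KO 2, Y-KO 3 or Y-Scr 2, with DESeq2 or with both trends removed. With both trends removed Tiparp stood at -0.0010. Without Y-Scr 1, Tnks (0.40) and Tnks2 (0.18) were called higher.

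The members on chromosome 16 form a compact block. Parp14, Dtx3l and Parp9 lie within 139.7 kb, between 35832874 and 35972605, and the window of 500 kb on either side held 53 other genes, of which 8 were tested. Of these, 2 fell and 0 rose, with a median of -0.02. The share that fell is close to the 23.0% of all tested genes, of which 20.7% rose. Kpna1, an importin gene whose start lies 39.6 kb from that of Dtx3l, stood at 78.2 ± 5.40 CPM in Y-KO and 79.0 ± 7.81 CPM in Y-Scr (log2 fold change -0.01 ± 0.08, SE, adjusted p = 0.914). On the Parp14 side, Hspbap1 (0.07 ± 0.10), Dirc2 (-0.22 ± 0.11) and Pdia5 (0.21 ± 0.11) did not pass, and Sec22a, at the far edge of the window, fell by 0.83 ± 0.10. On the Parp9 side, beyond Kpna1, Wdr5b (0.30 ± 0.24) and Ccdc58 (-0.02 ± 0.08) did not pass. Fam162a, on the same side, fell by 0.28 ± 0.07, a call lost with the trend on gene length removed (-0.08), and its value turned to 0.0093 with the trend on GC content removed as well.

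**Figure D3:**
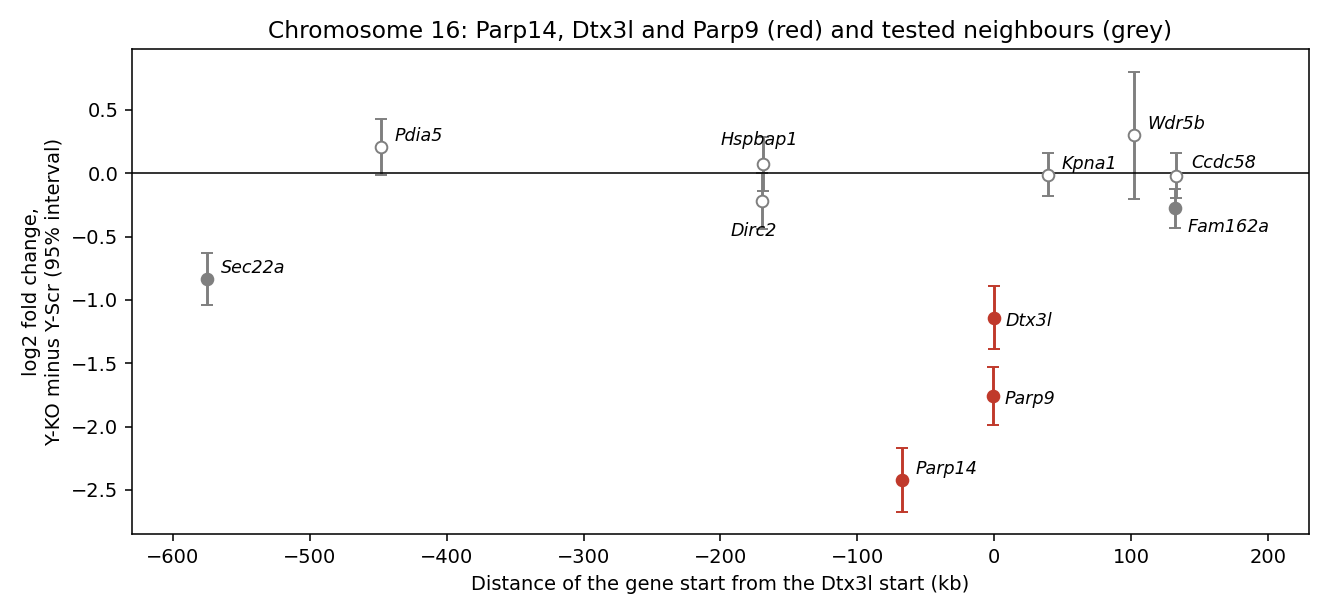
Log2 fold change (Y-KO minus Y-Scr, with its 95% interval) of the genes on chromosome 16 against the distance of each gene's start from that of Dtx3l in kb. Parp14, Parp9 and Dtx3l (red) lie between -2.42 and -1.14, while the tested neighbours (grey, open where not called) lie between -0.83 and 0.30.

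Promoters were read for the members because interferon acts on genes largely through the ISRE, a DNA element bound by IRF factors and by a complex that holds Irf9. RefSeq windows on GRCm38.p6, from 250 bases before to 50 bases after a gene's start, were at hand for 7 of the 10 members, in 8 windows. Parp9, Parp10 and Parp14 had no entry. The ISRE core was searched as GAAANNGAAA on both strands and was found in 3.44% of all 32851 windows. Among the members it occurred in the upstream window of Parp11 alone, at positions -44 to -35 on the minus strand. That window also held the related pair with a gap of 1 base, GAAANGAAA (3.17% of all windows), at -98 to -90, and a STAT element TTCNNNGAA (8.30% of all windows) at -37 to -29, which overlaps the ISRE match. The shorter motif GAAAC, found in 45.0% of all windows and overlapping the ISRE match in Parp11, occurred in the windows of Parp11, Parp12 and Dtx3l and in none of those of Parp1, Parp2, Parp3 and Parp8. The sequences printed here show the Parp11 match, the Parp12 and Dtx3l windows that hold only the shorter motif, and the Parp1 window, which holds none of the 4 motifs, each written 5′ to 3′ on the gene's strand, ending at or before the base ahead of the start. Capitals mark GAAANNGAAA, GAAANGAAA and GAAAC on either strand, and the Dtx3l stretch stops at the first annotated exonic base, so that of its 2 GAAAC matches only the one at -191 is shown. Parp11 is at chr6:127446590-127446839 (plus strand), Parp12 at chr6:39118350-39118599 (minus), Dtx3l at chr16:35939207-35939277 (minus) and Parp1 at chr1:180568641-180568890 (plus).
Parp11: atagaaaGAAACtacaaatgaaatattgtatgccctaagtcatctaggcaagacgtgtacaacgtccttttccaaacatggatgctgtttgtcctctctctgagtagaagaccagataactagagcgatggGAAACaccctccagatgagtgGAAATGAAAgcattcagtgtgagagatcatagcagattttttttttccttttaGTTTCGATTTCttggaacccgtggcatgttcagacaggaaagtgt
Parp12: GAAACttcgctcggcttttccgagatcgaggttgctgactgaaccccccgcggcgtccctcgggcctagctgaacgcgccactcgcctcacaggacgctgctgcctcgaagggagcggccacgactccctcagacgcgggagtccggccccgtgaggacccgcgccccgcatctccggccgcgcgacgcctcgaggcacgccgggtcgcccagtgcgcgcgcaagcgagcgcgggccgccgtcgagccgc
Dtx3l: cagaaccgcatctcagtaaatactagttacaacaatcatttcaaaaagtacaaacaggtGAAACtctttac
Parp1: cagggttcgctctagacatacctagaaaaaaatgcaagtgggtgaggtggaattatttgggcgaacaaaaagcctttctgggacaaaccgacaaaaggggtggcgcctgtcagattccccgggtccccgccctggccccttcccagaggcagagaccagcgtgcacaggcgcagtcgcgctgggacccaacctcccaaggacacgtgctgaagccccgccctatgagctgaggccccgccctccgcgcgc
Parp11, with the ISRE core, was the interferon-inducible member that changed least. A match is a description of letters, and their absence from these windows says nothing about sites elsewhere.

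Most genes that carry the interferon signal to such elements were lower too. Of 11 tested, 7 fell and 2 rose, with a median of -1.43, also when Ifnb1 is set at its bound. Over all tested genes 23.0% fell and 20.7% rose, so the share of rises in the list is close to that of all genes. Ifnb1, the gene of interferon beta, had 0 counts in the Y-KO libraries and 100 counts in the Y-Scr libraries, a level at least 30.3-fold lower in Y-KO against a floor of 3 counts over the group. Irf9, a DNA-binding factor of the interferon response, had 7.22 ± 0.812 CPM in Y-KO and 61.0 ± 2.00 CPM in Y-Scr (SD, n = 3 each), and fell by 3.08 ± 0.10 (SE, adjusted p = 1.5e-14). Stat2 had 11.2 ± 0.666 CPM in Y-KO and 30.2 ± 2.91 CPM in Y-Scr. Irf1 had 40.8 ± 1.52 CPM in Y-KO and 107.5 ± 4.29 CPM in Y-Scr. Irf7 (-5.33) and Usp18 (-6.67), which are themselves interferon-induced, had the largest fitted falls of the list apart from Ifnb1. The receptor genes Ifnar1 (0.12 ± 0.08) and Ifnar2 (-0.26 ± 0.11) did not pass, and the receptor kinase genes Jak1 and Tyk2 rose by 0.27 ± 0.07 and 0.33 ± 0.09. Tyk2 stood at 0.11 and lost its call with both trends removed (adjusted p = 0.302, edgeR's quasi-likelihood test).

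Genes of single-strand break repair, the partners of Parp1, did not move in 1 direction. Of 12 tested, 4 rose, 3 fell and 5 did not pass, with a median of 0.16, where 20.7% of all tested genes rose and 23.0% fell. The share that fell is close to that of all genes. Fen1, a flap endonuclease gene, rose by 0.49 ± 0.14 (SE, adjusted p = 0.00746), Apex1, which cuts at abasic sites, by 0.44 ± 0.10 (adjusted p = 0.00148), the scaffold gene Xrcc1 by 0.28 ± 0.11 (adjusted p = 0.0481) and the ligase gene Lig1 by 0.18 ± 0.06 (adjusted p = 0.0263). Polb, which encodes the polymerase that fills the gap, fell by 0.86 ± 0.10 (adjusted p = 1.0e-06), with 20.4 ± 1.65 CPM in Y-KO and 37.1 ± 2.72 CPM in Y-Scr. Hpf1, which directs Parp1 to serine, fell by 0.30 ± 0.08 (adjusted p = 0.00553). The ligase gene Lig3 stood at 0.15 ± 0.08 (adjusted p = 0.133). The count of rises was 2 without Y-KO 1, Y-KO 3 or Y-Scr 2 and with the replicate block, and with both trends removed Xrcc1 (0.07) and Hpf1 (-0.05) lost their calls. The Xrcc1 call was also lost with limma-voom, with the block and without any 1 library other than Y-Scr 3, with values from 0.17 without Y-Scr 1 to 0.43 without Y-Scr 3. The Lig1 call was lost with the block (0.18) and without Y-KO 1 (0.19), Y-KO 3 (0.14) or Y-Scr 2 (0.18).

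Enzymes that remove ADP-ribose were modestly lower or not called. Of 8 genes, 6 were tested, and 3 of these fell and 0 rose, where 23.0% of all tested genes fell and 20.7% rose, with a median of -0.23. Adprh, which releases ADP-ribose from arginine, fell by 0.43 ± 0.07 (SE, adjusted p = 4.8e-05), with 63.6 ± 1.69 CPM in Y-KO and 85.9 ± 0.577 CPM in Y-Scr. The macrodomain hydrolase genes Macrod2 (-0.53 ± 0.19, adjusted p = 0.0331) and Oard1 (-0.29 ± 0.11, adjusted p = 0.0349) also passed, with weak calls. Macrod2 lost its call without Y-KO 2 (-0.39), Y-KO 3 (-0.58), Y-Scr 2 (-0.57) or Y-Scr 3 (-0.40). Oard1 stood at -0.08 with the trend on gene length removed and at -0.02 with both removed, and its call was also lost with DESeq2 (-0.28), with limma-voom (-0.28) and without Y-KO 2 (-0.26), Y-KO 3 (-0.23), Y-Scr 1 (-0.27) or Y-Scr 2 (-0.22). Parg, which cuts the chains that Parp1 makes, stood at 0.20 ± 0.09 (adjusted p = 0.0789) and was called higher without Y-Scr 1 (0.28) and with both trends removed (0.25). The count of falls was 1 without Y-KO 2, Y-KO 3 or Y-Scr 2.

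**Figure D4:**
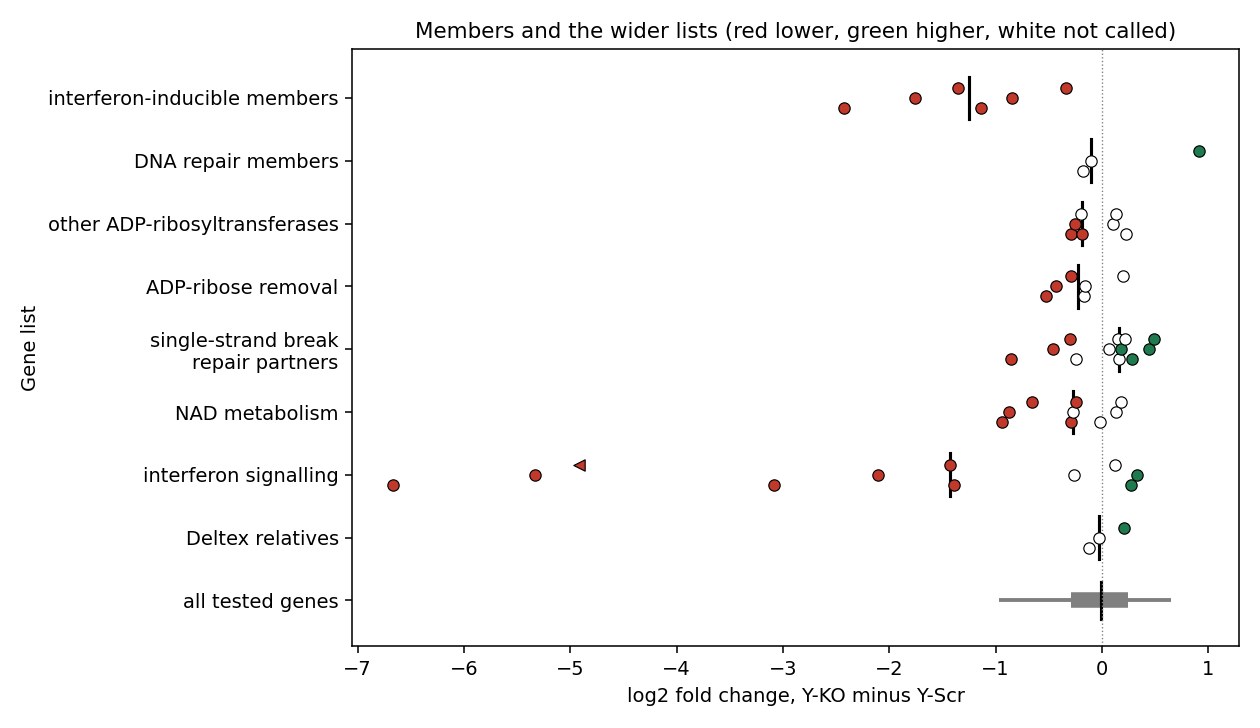
Log2 fold change (Y-KO minus Y-Scr) of each tested gene of the member classes and the wider lists, with the list's median as a black bar and, for all tested genes, the range from the 5th to the 95th percentile (thin, -0.97 to 0.65) and from the 25th to the 75th (thick). The triangle is Ifnb1 at its bound of -4.92. The interferon-inducible members have a median of -1.25 and interferon signalling -1.43, and the medians of the other lists lie between -0.27 and 0.16.

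Profiles over the 6 libraries were compared among 9654 protein-coding genes that averaged 5 CPM or more. Those most like Parp14 were Oas3, an interferon-induced enzyme gene (root-mean-square distance 0.10 on the log2 scale), Txnip (0.12), the chemokine gene Ccl2 (0.14), Slc25a25 (0.14) and the natriuretic peptide gene Nppb (0.15). Oas3 had 10.9 CPM in Y-KO and 61.6 CPM in Y-Scr. Those closest to Dtx3l were Tmlhe (0.04), the IkB family gene Bcl3 (0.08), the phosphatase gene Dusp5 (0.08), Samd9l, an interferon-induced antiviral gene (0.10), and Ppp1r14c (0.10). Among the members themselves, Dtx3l lay 0.18 from Parp12, 0.32 from Parp9 and 0.63 from Parp14, and Parp11 lay 0.16 from both Parp3 and Parp8 but 1.01 from Parp14.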

How the data were processed

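RNA of 3 Y-KO and 3 Y-Scr libraries was compared. The authors deposited whole-number read counts per gene, not normalized, with gene lengths and coordinates. Trimmomatic 0.39, STAR 2.5.2b and featureCounts 1.5.3 are listed in the submitters' processing notes, as are FastQC 0.12.1, MultiQC 1.13, DESeq2 and the build names GRCm39 and mm39. Of 54495 deposited genes also in GENCODE M21, 98.3% had its GRCm38 position, all 10 members included, so coordinates are given as GRCm38. Library preparation was stranded and poly-A selected, per the labels' protocols.

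In R 4.3.3, edgeR 4.0.16 was run on the counts (filterByExpr, TMM, robust quasi-likelihood, group as the only term), and p-values were adjusted over all tested genes. SE was taken from the F statistic. CPM and RPKM were computed from the counts. The steps were tested on simulated data. Replicates of a group varied more than counting error (ratio of chi-square to its degrees of freedom 3.44 to 14.8), and sampling error is only part of the SD shown.

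Alternatives were DESeq2 1.42.0, limma-voom 3.58.1, other scaling and filters, protein-coding genes only, a replicate block, removal of the trend on gene length (splines with 4 degrees of freedom), and each library left out. Removal of the trend on length and GC content was added after seeing the data.

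Members and lists were chosen with earlier results of these data known. Genes named were all members, all neighbours of the chromosome 16 block, at least the 3 genes of each list with the smallest adjusted p, 4 Y genes, and the 5 genes closest in profile (log2 of CPM + 0.5, centred) to Parp14 and to Dtx3l. A few list genes are not reported here by name. Lists were described by counts and medians without a set test. For Adprs the table carries the older symbol Adprhl2.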

Additional observations from a re-analysis of the deposited data

How the results depend on the processing

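Of 160 values of the 10 members under 16 alternatives, 152 kept their direction and their side of the threshold. The other 8 were all of Parp11, which kept its direction. Leaving out each library gave 6 to 7 members called lower and 1 higher, 5 to 6 interferon-inducible members lower and 1 DNA repair member called, and 2458 to 3000 genes lower and 2141 to 2803 higher over all tested. The wider lists depended more on the settings. In that order of lower and higher, leaving out a library gave 0 to 3 and 0 to 2 calls among other ADP-ribosyltransferases, 1 to 3 and 0 to 1 in ADP-ribose removal, 3 to 4 and 2 to 4 among repair partners, 0 and 0 to 1 among Deltex relatives, and 2 to 3 and 0 among neighbours of the chromosome 16 block. Other ADP-ribosyltransferases had 1 lower call with DESeq2, 0 with the replicate block, 1 with the trends on length and GC content removed, and 1 higher with no low-count filter. With both trends removed, 1 ADP-ribose removal gene was higher, 1 interferon signalling gene was higher, and 1 Deltex relative was lower and 0 higher. Deltex relatives had 0 higher with no low-count filter or the block, and repair partners had 2 higher with the block. Neighbours had 1 lower and 1 higher with the trend on length removed, and 1 lower and 2 higher with both removed.

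Of values that turned sign, all but Fam162a were of genes not called in the reported fit. Ccdc58 was 0.19 with the trend on length removed and 0.26 with both removed, and ran from -0.0491 to 0.0166 over libraries left out. Kpna1 was 0.0235 with both removed and ran from -0.0920 to 0.0563. Dtx3 was 0.0443 with the trend on length removed and ran from -0.240 to 0.00066. Dtx2 ran from -0.0520 to 0.0057. Hspbap1 was -0.0176 with the trend on length removed. Fam162a, called lower at -0.28, was 0.0093 with both removed. Apart from the alternatives' construction, the cause was not tested.

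Same-numbered replicates did not deviate together (correlation of deviations -0.06, -0.03 and -0.02 for numbers 1, 2 and 3), so the numbers were not taken as pairs. With the replicate block, 6 members were called lower and 1 higher, 5 interferon-inducible members lower, 2627 genes lower and 2333 higher over all tested. The weakest call, that of Parp11, rested on 580 counts over the Y-KO libraries and 783 over the Y-Scr libraries.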

Other observations

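Genes that supply or use NAD, the substrate of the PARP enzymes, were measured beside the family. Of 12 listed, 9 were tested, and 5 of these fell and 0 rose, with a median log2 fold change of -0.27, where 23.0% of all tested genes fell. Nampt, the rate-limiting gene of NAD salvage, had 196 ± 5.89 CPM in Y-KO and 239.5 ± 21.7 CPM in Y-Scr (SD, n = 3 each) and fell by 0.29 ± 0.07 (SE, adjusted p = 0.00203, edgeR's quasi-likelihood test). With the trends on gene length and GC content removed, its log2 fold change was -0.07 and was not called. Nmnat3, the mitochondrial NAD synthase gene, fell by 0.94 ± 0.15 (adjusted p = 5.0e-05), Nmnat2, a cytosolic one, by 0.87 ± 0.20 (adjusted p = 0.00136), Nadk, which makes NADP, by 0.25 ± 0.06 (adjusted p = 0.00424), and Naprt by 0.66 ± 0.24 (adjusted p = 0.035). The Naprt call was lost with the replicate block (-0.66), with the trend on length removed (-0.48), and without Y-KO 2 (-0.66), Y-KO 3 (-0.44), Y-Scr 2 (-0.71) or Y-Scr 3 (-0.42).

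Relatives of Dtx3l in the Deltex family did not fall. Of 4 genes, 3 were tested, of which 1 rose and 0 fell, where 20.7% of all tested genes rose and 23.0% fell, with a median of -0.03. Dtx2 stood at 76.0 ± 1.29 CPM in Y-KO and 77.6 ± 3.25 CPM in Y-Scr, and Dtx3 at 29.0 ± 4.12 CPM in Y-KO and 31.4 ± 4.23 CPM in Y-Scr. Dtx4 had 64.8 ± 1.48 CPM in Y-KO and 56.1 ± 1.99 CPM in Y-Scr and rose by 0.21 ± 0.07 (SE, adjusted p = 0.0287, edgeR's quasi-likelihood test), a call lost without Y-KO 1 (0.19), Y-KO 2 (0.21), Y-KO 3 (0.22) or Y-Scr 2 (0.19).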
